A study of Homo sapiens with 18 samples.

Results

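Interferon-stimulated genes are the antiviral genes that cells switch on when they sense type I interferon. A total of 42 of them was taken by name from a table of 57500 genes, and each was found there once. Their RNA was followed in 18 poly-A RNA-seq libraries of 3 human lines of non-small cell lung cancer (NSCLC), all known for EML4-ALK fusions. The question was how these genes respond to TRI-611, a glue degrader of the receptor tyrosine kinase ALK by the series title, and how their levels differ between the lines without it. There were 6 groups of 3 libraries: SNU2535, NCI-H3122 and NCI-H2228 cells with 3 µM TRI-611 for 3 h, and the same 3 lines with DMSO for 3 h. The labels give the genotype of every group as WT, name no interferon treatment, and number a batch from 1 to 3 that equals the replicate number. Each line is 1 established line, and the labels do not state separate cultures for its libraries. The p-values therefore cover only the spread among these samples, which may be technical.

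As background, type I interferon binds the receptor IFNAR1 with IFNAR2 and activates the kinases JAK1 and TYK2. These phosphorylate STAT2, which with IRF9 is part of the complex that binds the interferon-stimulated response element (ISRE) in front of most of these genes. The gamma-activated sequence (GAS) is an element of the response to interferon gamma, and IRF1 and IRF7 bind ISRE-like letters as well. Cells keep a low level of this programme without added interferon, and cancer lines are known to differ in it.

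The promoters of the members carried these elements. RefSeq promoter sequences (GRCh38.p14, from 250 bases before to 50 after the transcript start) were matched by symbol for 33 of the 42 genes. IFIT2, OAS2, OASL, IFITM2, MX2, GBP2, TRIM22, USP18 and IRF7 were not matched. The ISRE core was searched as GAAA, any 2 bases and GAAA again on either strand, with overlapping matches allowed. Where it lies on the other strand, the printed strand reads TTTC, any 2 bases and TTTC. A gene was counted if any of its listed starts had a match. The core stood in 24 of the 33 genes (72.7%), against 4.38% of the 27305 genes with a RefSeq promoter sequence. The letters TTCNNNGAA, the GAS core, which reads the same on both strands, stood in 10 of 33 (30.3%), against 9.38%. A match describes letters and does not show that a factor binds there.

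The following stretches of 160 bases end at the transcript start and are written 5′ to 3′ along the gene's strand, with the ISRE cores in capitals, or for IRF1 the GAS core. The stretch of DDX60 also holds 1 GAS core and that of BST2 holds 2, which are not marked. IFIT1, IFIT3, SAMD9 and DDX60 are shown because their RNA was higher with TRI-611, ISG15 because it was high in all 3 lines, BST2 because it was listed at 0 in NCI-H3122 with DMSO and high in the other lines, and IRF1 because it moved in opposite directions in 2 lines.
IFIT1 (chr10:89392463-89392622, + strand): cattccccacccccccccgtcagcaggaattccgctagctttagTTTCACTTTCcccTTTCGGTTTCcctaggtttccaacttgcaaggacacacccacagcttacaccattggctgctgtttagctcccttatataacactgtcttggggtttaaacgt
IFIT3 (chr10:89327837-89327996, + strand): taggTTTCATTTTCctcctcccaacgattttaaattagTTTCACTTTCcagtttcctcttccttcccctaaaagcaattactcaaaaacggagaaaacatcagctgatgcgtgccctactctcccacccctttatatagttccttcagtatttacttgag
SAMD9 (chr7:93117980-93118139, - strand): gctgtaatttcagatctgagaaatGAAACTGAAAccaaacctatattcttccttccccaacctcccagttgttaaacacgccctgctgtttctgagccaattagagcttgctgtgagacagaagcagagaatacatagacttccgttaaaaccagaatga
DDX60 (chr4:168318753-168318912, - strand): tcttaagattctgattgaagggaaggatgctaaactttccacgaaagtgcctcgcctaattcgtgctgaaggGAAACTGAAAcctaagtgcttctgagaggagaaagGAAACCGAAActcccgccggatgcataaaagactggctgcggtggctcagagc
ISG15 (chr1:1013337-1013496, + strand): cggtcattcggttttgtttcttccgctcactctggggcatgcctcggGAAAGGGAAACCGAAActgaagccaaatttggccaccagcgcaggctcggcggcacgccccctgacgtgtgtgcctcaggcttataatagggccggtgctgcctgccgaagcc
BST2 (chr19:17405631-17405790, - strand): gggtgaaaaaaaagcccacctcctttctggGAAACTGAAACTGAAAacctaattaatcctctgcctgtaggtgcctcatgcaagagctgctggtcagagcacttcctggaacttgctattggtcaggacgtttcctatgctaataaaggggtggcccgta
IRF1 (chr5:132490774-132490933, - strand): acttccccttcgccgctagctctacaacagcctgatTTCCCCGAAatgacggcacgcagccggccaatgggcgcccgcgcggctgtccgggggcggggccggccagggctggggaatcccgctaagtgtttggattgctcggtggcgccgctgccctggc
Both IFIT promoters held 2 ISRE cores close together, those of ISG15 and BST2 held 2 that overlapped, and that of SAMD9 held 1. The STAT2 promoter held no ISRE core in this window. Counted by response, the ISRE core stood in 6 of 9 matched genes called higher with TRI-611 in at least 1 line (66.7%). It stood in 5 of 6 called lower in at least 1 line (83.3%) and in 13 of 19 called in no line (68.4%). IRF1 was counted both among those called higher and among those called lower.

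**Figure D1:**
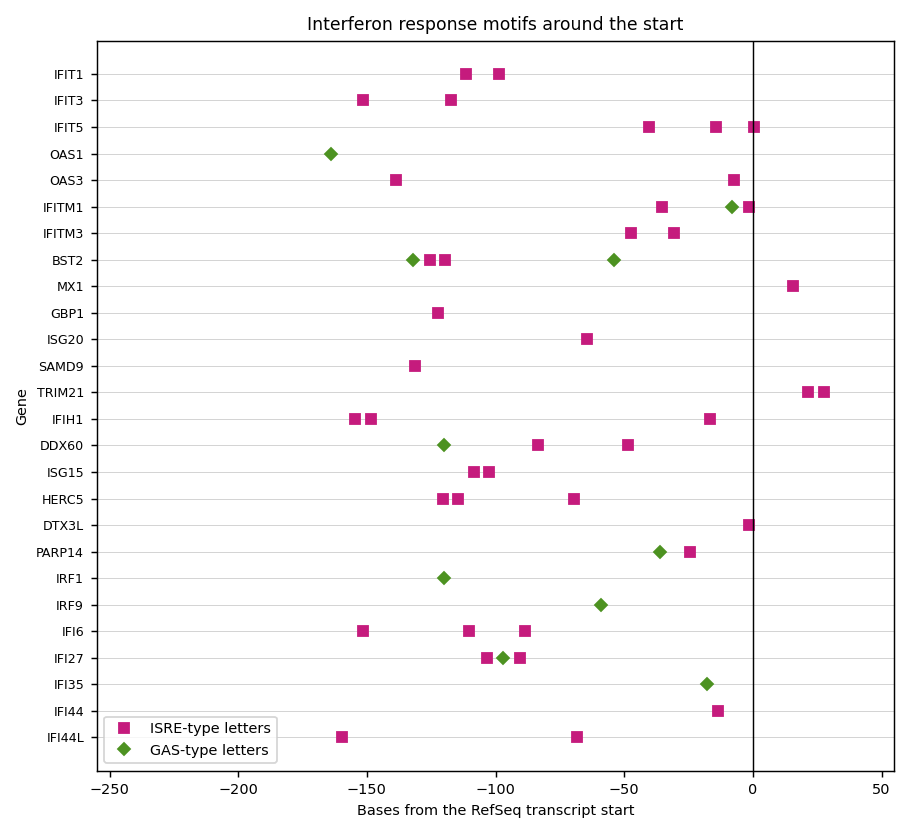
Positions of the ISRE-type and GAS-type letters (markers) in bases from the RefSeq transcript start, with 1 start shown for each matched gene. Counting any start of a gene, ISRE-type letters stood in 24 of 33 matched genes and GAS-type letters in 10. The ISRE-type letters of PARP9 and RSAD2 and the GAS-type letters of MX1 lay at other starts and are not shown.

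The levels are TPM, transcript abundances scaled by length to a fixed sum in each library, so read depth is unknown and no counting interval can be given. Libraries had 23766 to 25921 genes above 0 TPM, and the correlation of log levels between replicates was 0.991 to 0.993 across genes. The MAPK feedback genes DUSP6 (log2 difference -4.24 for SNU2535, -4.36 for NCI-H3122 and -1.86 for NCI-H2228) and SPRY4 (-4.14, -4.04 and -1.66) fell with TRI-611 in every line. KLHL24 rose (1.96, 2.47 and 1.66), so each line had a response in the libraries labelled TRI-611. Of 8 epithelial markers, all were at 1 TPM or more in SNU2535 and NCI-H2228, and SFTPB and NAPSA were below it in NCI-H3122. The 7 leukocyte markers summed to 1.26 to 9.96 TPM per library, with PTPRC under 1 TPM and CD14 at 1 TPM or more in each. Of 4 fibroblast markers, which summed to 136 to 393 TPM, COL3A1 and DCN were under 1 TPM in every library. COL1A1 was at 1 TPM or more in every library, and LUM in those of SNU2535 and NCI-H3122. The 3 endothelial markers summed to 1.99 to 12.1 TPM, and all 3 were at 1 TPM or more in the SNU2535 libraries with TRI-611. The part of such cells in the results was not tested.

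Without TRI-611, NCI-H3122 stood far below the other lines for nearly the whole set. Every NCI-H3122 DMSO library was below every DMSO library of the other lines for 38 of 42 members (90.5%, against 34.1% of the 18233 genes tested between lines). The 42 members together summed to 2546 to 2622 TPM in SNU2535, 185 to 199 TPM in NCI-H3122 and 3128 to 3293 TPM in NCI-H2228. A total of 14 members (33.3%, against 5.06% of all genes tested) was under 1 TPM in all 3 NCI-H3122 libraries and at 1 TPM or more in all 6 others. In bulk libraries, fewer cells expressing a gene and less RNA per cell cannot be told apart.

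The difference was tested with limma on log2(TPM + 1), which understates the fold change of genes at low TPM, with p-values adjusted over all genes (Benjamini-Hochberg) and a gene called at an adjusted p under 0.05. Between SNU2535 and NCI-H3122, 41 of 42 members were called higher in SNU2535 (97.6%, against 45.4% of all genes) and 0 lower (30.7% of all genes), and all 42 differences were positive. The median log2 difference of the members was 2.54, against 0.16 over all genes, and 37 members differed by at least 2-fold on this scale. ISG20, an exonuclease, was the member not called (0.13, adjusted p = 0.198). Between NCI-H3122 and NCI-H2228, 39 members were called lower in NCI-H3122 (92.9%, against 49.3%) and 0 higher (30% of all genes), all 42 differences being negative, with a median of -2.40 against -0.25 over all genes. IRF9 (-0.17, adjusted p = 0.367), STAT2 (-0.10, adjusted p = 0.249) and IRF7 (-0.09, adjusted p = 0.261) were not called there. Between SNU2535 and NCI-H2228 the members went both ways: 20 were called higher in SNU2535 (47.6%, against 32.4%) and 18 lower (42.9%, against 42.6%), with a median of 0.04 against -0.11. The comparisons share DMSO libraries in pairs. With DMSO, RSAD2 reached 1 TPM only in SNU2535 and XAF1 only in NCI-H2228. Both therefore passed the filter only through the line where they were highest.

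Scaling moves the baseline of these comparisons and the calls of some members. Median-ratio scaling shifted all genes by -0.17 and quantile normalization by -0.27 between SNU2535 and NCI-H3122. The shifts were 0.26 and 0.37 between NCI-H3122 and NCI-H2228, and 0.10 for both between SNU2535 and NCI-H2228. The share of called genes that were higher in SNU2535 than in NCI-H3122 was 59.6%, and 46.3% after quantile normalization. For NCI-H3122 against NCI-H2228 the share higher was 37.9%, and 48.8% and 53.8% after median-ratio scaling and quantile normalization. Under these scalings ISG15 was not called between SNU2535 and NCI-H3122 (adjusted p = 0.319 and 0.225), and ISG20 was called lower in SNU2535 after quantile normalization (-0.22, adjusted p = 0.0299). IRF7 was called higher in NCI-H3122 than in NCI-H2228 (0.20 and 0.24 under the 2 scalings), and STAT2 after quantile normalization (0.32). For the same pair RSAD2 lost its call under both scalings (adjusted p = 0.0763 and 0.847), and CMPK2 after quantile normalization (-0.06, adjusted p = 0.662). Between SNU2535 and NCI-H2228, HERC5 was not called after quantile normalization (adjusted p = 0.0836). PARP14 was called higher in SNU2535 there after median-ratio scaling (0.13, adjusted p = 0.0432).

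**Figure D2:**
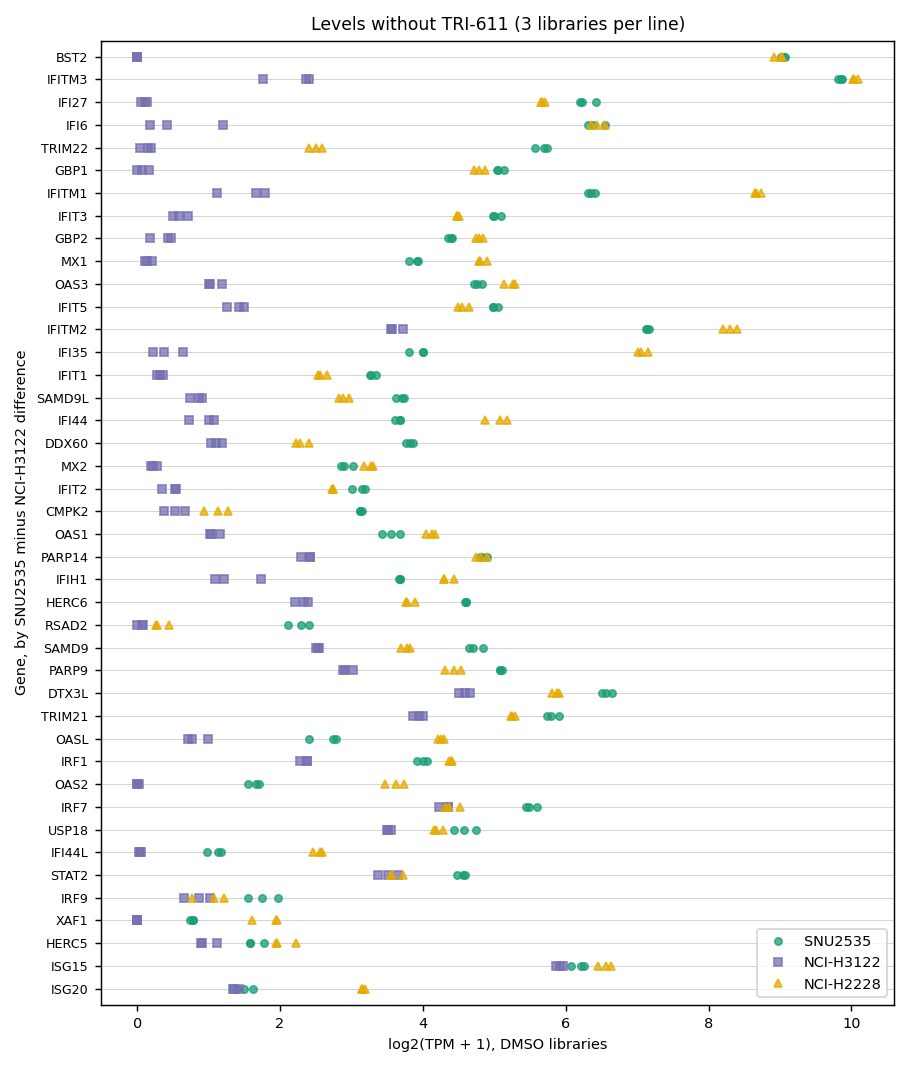
Level of each member, log2(TPM + 1) on the horizontal axis, in the 3 DMSO libraries of SNU2535, NCI-H3122 and NCI-H2228, with genes ordered by the SNU2535 minus NCI-H3122 difference. NCI-H3122 points lie left of all others for 38 of 42 genes.

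Among the membrane-bound antiviral proteins, BST2 and IFITM3 showed wide gaps. BST2 (tetherin), which holds budding virus particles on the cell surface, measured 514, 538 and 532 TPM in SNU2535 and 515, 484 and 521 TPM in NCI-H2228, and was listed at 0 in all 3 NCI-H3122 DMSO libraries. In NCI-H3122 with TRI-611 it was listed at 0.131, 0 and 0 TPM. No fold is given against libraries at 0, and SNU2535 and NCI-H2228 did not differ in BST2 beyond the threshold (log2 difference 0.06, adjusted p = 0.161), though BST2 was called higher in SNU2535 after median-ratio scaling (0.16, adjusted p = 0.000624). IFITM3, which blocks fusion of incoming viruses, measured 902, 930 and 928 TPM in SNU2535 and 4.28, 2.39 and 4.15 TPM in NCI-H3122. In NCI-H2228 it measured 1095, 1045 and 1043 TPM. The NCI-H3122 libraries were lowest without overlap (log2 difference 7.67 for SNU2535 minus NCI-H3122 and -7.88 for NCI-H3122 minus NCI-H2228, SE 0.145, limma adjusted p = 1.62e-10 and 1.04e-10). IFITM1, of the same family, measured 78.3, 84.0 and 80.9 TPM in SNU2535, 2.47, 2.17 and 1.17 TPM in NCI-H3122 and 426, 405 and 403 TPM in NCI-H2228. The 3 lines did not overlap in IFITM1. IFITM1 and IFITM2 share 351 exon bases in GENCODE 29 and the IFITM genes are close copies, so the split of reads among them is uncertain.

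Several other interferon-induced genes were also lowest in NCI-H3122. IFI27, a mitochondrial protein, measured 72.5, 84.6 and 73.9 TPM in SNU2535, 0.0802, 0.0353 and 0.101 TPM in NCI-H3122 and 51.1, 49.2 and 49.9 TPM in NCI-H2228. IFI6, an inhibitor of apoptosis and of flavivirus replication, measured 78.3, 92.6 and 82.7 TPM in SNU2535, 0.128, 0.338 and 1.29 TPM in NCI-H3122 and 80.5, 92.5 and 86.0 TPM in NCI-H2228. Both were near or under 1 TPM in NCI-H3122 and high in the other lines (SNU2535 minus NCI-H3122 6.18 for IFI27 and 5.82 for IFI6). IFI35, a partner of NMI, separated all 3 lines, with 15.1, 15.0 and 12.9 TPM in SNU2535, 0.169, 0.297 and 0.567 TPM in NCI-H3122 and 142, 128 and 132 TPM in NCI-H2228 (SNU2535 minus NCI-H2228 -3.14, SE 0.106, limma adjusted p = 4.46e-09). XAF1, a pro-apoptotic protein, was listed at 0 in all 6 NCI-H3122 libraries and stayed under 3 TPM in the others.

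The ubiquitin ligase TRIM22 marked SNU2535. It measured 46.4, 50.9 and 52.3 TPM there, 0.111, 0.0243 and 0.139 TPM in NCI-H3122 and 4.68, 4.28 and 4.99 TPM in NCI-H2228 (SNU2535 minus NCI-H2228 3.17, SE 0.0788, limma adjusted p = 6.04e-10). The neighbouring genes CMPK2, a mitochondrial nucleotide kinase, and RSAD2 (viperin), which makes a chain-terminating nucleotide, were also higher in SNU2535 than in NCI-H2228. CMPK2 had 7.68, 7.67 and 7.91 TPM in SNU2535 and 1.19, 0.911 and 1.42 TPM in NCI-H2228 (log2 difference 2.01). RSAD2 had 4.30, 3.32 and 3.92 TPM in SNU2535 and 0.365, 0.203 and 0.216 TPM in NCI-H2228 (1.94). The groups did not overlap for either gene. RSAD2 was under 1 TPM in every DMSO library of NCI-H3122 and NCI-H2228. It passed the filter only through SNU2535, where it was high, so its call is no independent support. The helicase DDX60 (1.51), IRF7 (1.11) and SAMD9 (0.96) completed the 6 largest differences in this direction. The largest in the other direction after IFI35 were IFITM1 (-2.33), OAS2 (-1.97), ISG20 (-1.66), OASL (-1.61) and IFI44L (-1.44).

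Other large differences were those of IFITM1 (-7.16), IFI35 (-6.66), IFI6 (-5.85) and IFI27 (-5.57) for NCI-H3122 minus NCI-H2228, and of TRIM22 (5.54) and the GTPase GBP1 (5.00) for SNU2535 minus NCI-H3122. The antiviral GTPases MX1 and MX2 and the OAS enzymes, which make the oligoadenylates that activate RNase L, were all lower in NCI-H3122. MX1 averaged 13.8 ± 0.672 TPM in SNU2535, 0.109 ± 0.0391 TPM in NCI-H3122 and 27.3 ± 1.18 TPM in NCI-H2228 (SD, n = 3 each). OAS3 averaged 26.2 ± 1.10, 1.10 ± 0.153 and 36.7 ± 2.18 TPM in those lines (SD, n = 3 each).

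Each NCI-H3122 DMSO library had 21 to 23 of the 42 members at 1 TPM or more. The ubiquitin-like modifier ISG15 averaged 71.6 ± 4.83 TPM in SNU2535, 59.2 ± 2.08 TPM in NCI-H3122 and 92.9 ± 5.60 TPM in NCI-H2228 (SD, n = 3 each). USP18, the protease that removes ISG15 and damps the receptor, averaged 23.2 ± 2.58, 10.5 ± 0.218 and 17.5 ± 0.808 TPM, and IRF7 44.6 ± 2.53, 18.9 ± 0.942 and 20.1 ± 1.68 TPM (SD, n = 3 each). DTX3L, an E3 ligase that works with PARP9, averaged 94.3 ± 4.62, 23.1 ± 1.24 and 57.1 ± 2.07 TPM (SD, n = 3 each). STAT2 averaged 22.3 ± 0.937, 10.5 ± 1.07 and 11.3 ± 0.757 TPM (SD, n = 3 each), and the NCI-H3122 and NCI-H2228 libraries overlapped.

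**Figure D3:**
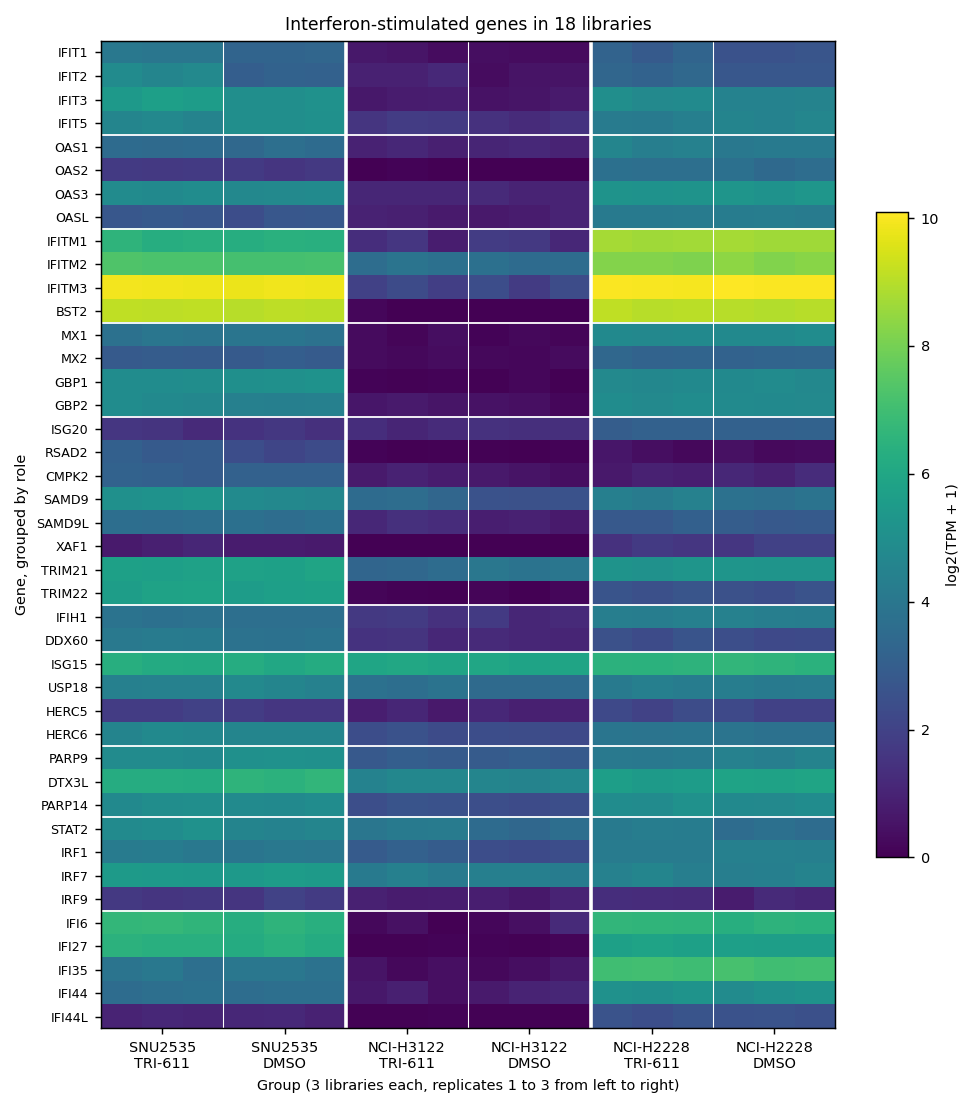
Level of the 42 members, as log2(TPM + 1) in colour, in all 18 libraries, with genes grouped by role and TRI-611 left of DMSO within each line. The NCI-H3122 columns are dark (low) for most genes, and ISG15, IRF7 and DTX3L are among those that are not.

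Of the genes upstream, the receptor subunit IFNAR2 measured 27.0 ± 1.66 TPM in SNU2535, 10.2 ± 0.993 TPM in NCI-H3122 and 26.1 ± 1.39 TPM in NCI-H2228 with DMSO, IFNAR1 66.3 ± 1.72, 43.8 ± 0.718 and 60.6 ± 2.62 TPM, and JAK1 109 ± 1.69, 55.4 ± 1.45 and 99.3 ± 2.92 TPM in those lines (SD, n = 3 each). All 3 were lowest in NCI-H3122 (IFNAR2 NCI-H3122 minus NCI-H2228 -1.27, limma adjusted p = 1.32e-07). None of the 9 interferon ligand genes looked for passed the filter of 1 TPM in at least 3 libraries in any line.

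Most sensors and other interferon-induced genes outside the 42 were also lower in NCI-H3122, with exceptions. Of 11 sensor and adaptor genes tested, 10 were called higher in SNU2535 than in NCI-H3122 (45.4% of all genes). Against NCI-H2228, 10 were called lower in NCI-H3122 and 1 higher (49.3% and 30% of all genes). IRF3 averaged 69.4 ± 0.413 TPM in NCI-H3122 and 32.3 ± 0.143 TPM in NCI-H2228 (SD, n = 3 each). The DNA sensor AIM2 was listed at 0 in all 3 NCI-H3122 DMSO libraries and averaged 37.1 ± 1.85 TPM in SNU2535 and 31.0 ± 2.45 TPM in NCI-H2228 (SD, n = 3 each). Of 32 further interferon-stimulated genes tested, 26 were called higher in SNU2535 than in NCI-H3122 and 3 lower (45.4% and 30.7% of all genes). Against NCI-H2228, 27 of them were called lower in NCI-H3122 and 4 higher (49.3% and 30% of all genes). UBE2L6, the conjugating enzyme for ISG15, averaged 185 ± 6.69 TPM in SNU2535, 0.311 ± 0.258 TPM in NCI-H3122 and 159 ± 2.36 TPM in NCI-H2228 (SD, n = 3 each). In NCI-H3122, ISG15 was thus high while this enzyme was under 1 TPM.

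With TRI-611 for 3 h, part of the set rose and part fell in each line. In SNU2535, 41 members were tested (XAF1 did not reach 1 TPM in 3 libraries). Of these, 10 were called higher (24.4%, against 10.7% of the 16252 genes tested) and 4 lower (9.76%, against 18.1%), with a median log2 difference of 0.06 against -0.02 over all genes. In NCI-H2228, 40 were tested (not RSAD2 and CMPK2), 6 were called higher (15%, against 4.8% of 16806 genes) and 4 lower (10%, against 6.4%), with a median of 0.04 against 0.01. In NCI-H3122 only 21 members reached the filter, 4 were called higher (19%, against 20.6% of 15311 genes) and 1 lower (4.76%, against 13.4%), with a median of 0.10 against 0.05. The NCI-H3122 shares of members therefore lay at or under those of all genes. The higher calls were 37.1% of all calls in SNU2535, and 50.9% after quantile normalization. They were 60.6% in NCI-H3122, and 47.5% after median-ratio scaling, and 42.8% in NCI-H2228, and 56.1% after rescaling without mitochondrially encoded genes.

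**Figure D4:**
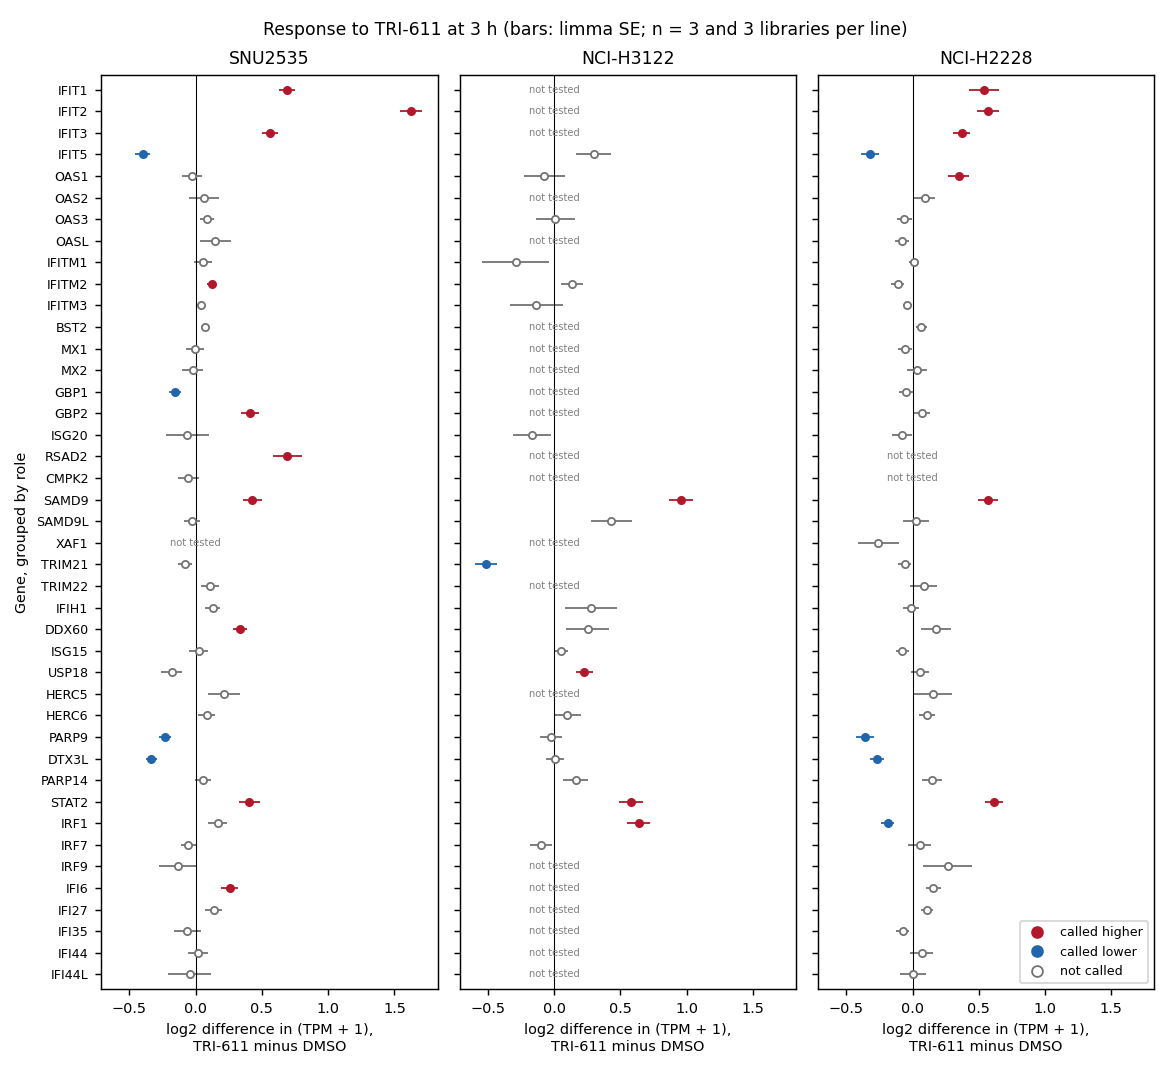
Log2 difference in (TPM + 1), TRI-611 minus DMSO, of each member tested in SNU2535, NCI-H3122 and NCI-H2228, with limma's standard error as bars. Red points were called higher, blue lower and open points not called; IFIT2 in SNU2535 is farthest to the right at 1.63.

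Of the IFIT genes, whose proteins bind foreign RNA, IFIT2 gave the largest response of a member in SNU2535. They lie side by side on the + strand of chromosome 10 (GRCh38, GENCODE 29), in the order IFIT2 (chr10:89283694-89309276), IFIT3 (chr10:89327894-89340971), IFIT1 (chr10:89392546-89406486) and IFIT5 (chr10:89414586-89421001). IFIT2 measured 28.0, 23.3 and 26.2 TPM with TRI-611 and 7.03, 8.14 and 7.87 TPM with DMSO in SNU2535. All TRI-611 libraries were above all DMSO libraries, by a ratio of 3.09 on the TPM + 1 scale (log2 difference 1.63, SE 0.0827, limma adjusted p = 1.3e-05). In NCI-H2228 IFIT2 measured 9.12, 8.09 and 9.58 TPM with TRI-611 and 5.62, 5.70 and 5.69 TPM with DMSO, a smaller rise without overlap (0.57, SE 0.0828, limma adjusted p = 0.00358). In NCI-H3122 the levels were 0.891, 0.898 and 1.23 TPM with TRI-611 and 0.271, 0.464 and 0.443 TPM with DMSO. Those groups did not overlap either, but the gene failed the filter, and without a filter it was not called (0.53, adjusted p = 0.0578). GENCODE places 10.3% of the IFIT2 exon bases under other genes, so some of its reads could not be told apart from theirs.

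IFIT1 and IFIT3 rose with IFIT2 in the same lines. In SNU2535 IFIT1 measured 15.3, 14.5 and 14.6 TPM with TRI-611 and 8.57, 8.65 and 9.18 TPM with DMSO (log2 difference 0.69, SE 0.0578, limma adjusted p = 0.000118). IFIT3 measured 43.6, 50.7 and 47.1 TPM with TRI-611 and 30.8, 30.8 and 33.2 TPM with DMSO (0.56, SE 0.0625, limma adjusted p = 0.000469). In NCI-H2228 IFIT1 measured 8.34, 6.32 and 8.58 TPM with TRI-611 and 4.78, 4.88 and 5.28 TPM with DMSO (0.54, SE 0.116, limma adjusted p = 0.0211). No group pair overlapped. The NCI-H2228 call of IFIT1 was lost when replicate 1 or 3 of the TRI-611 libraries or replicate 1 or 2 of the DMSO libraries was left out (adjusted p = 0.0753, 0.0706, 0.0658 and 0.0695). IFIT3 in NCI-H2228 measured 30.8, 26.2 and 27.2 TPM with TRI-611 and 21.3, 21.4 and 21.7 TPM with DMSO (0.37, SE 0.0655, limma adjusted p = 0.00902). Both were under 1 TPM in every NCI-H3122 library.

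IFIT5, next to IFIT1 on the same strand, went the other way in those lines. It measured 23.1, 25.0 and 22.0 TPM with TRI-611 and 30.5, 30.6 and 32.2 TPM with DMSO in SNU2535 (log2 difference -0.40, SE 0.0568, limma adjusted p = 0.00155). In NCI-H2228 it measured 17.3, 17.1 and 19.4 TPM with TRI-611 and 22.4, 21.5 and 24.0 TPM with DMSO (-0.32, SE 0.0685, limma adjusted p = 0.0204). Every TRI-611 library was below every DMSO library in both. The NCI-H2228 call was lost when replicate 1 or 2 of the TRI-611 libraries or replicate 1 or 3 of the DMSO libraries was left out (adjusted p = 0.0720, 0.0624, 0.0553 and 0.0523). In NCI-H3122 IFIT5 measured 1.97, 2.45 and 2.27 TPM with TRI-611 and 1.69, 1.38 and 1.81 TPM with DMSO (0.30, adjusted p = 0.124).

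STAT2 and SAMD9 were the members called higher in all 3 lines, 2 of the 21 members tested in all 3 (9.52%, against 2.56% of 13186 genes). STAT2, the transcription factor of the interferon response complex (chr12:56341597-56360155), measured 27.6, 28.7 and 33.7 TPM with TRI-611 and 22.7, 21.2 and 23.0 TPM with DMSO in SNU2535 (log2 difference 0.41, SE 0.0772, limma adjusted p = 0.00619). In NCI-H3122 the levels were 14.4, 16.5 and 17.4 TPM with TRI-611 and 10.5, 9.38 and 11.5 TPM with DMSO (0.58, SE 0.0923, limma adjusted p = 0.00234). In NCI-H2228 it measured 17.0, 18.4 and 18.1 TPM with TRI-611 and 10.8, 12.1 and 10.9 TPM with DMSO (0.62, SE 0.0673, limma adjusted p = 0.000859). The groups overlapped in none of the lines. STAT2 differed in response between no pair of lines at the threshold.

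SAMD9, an antiviral and growth-restraining protein (chr7:93099513-93118023), measured 32.2, 34.7 and 37.0 TPM with TRI-611 and 27.6, 25.1 and 23.9 TPM with DMSO in SNU2535 (log2 difference 0.43, SE 0.0697, limma adjusted p = 0.00300). In NCI-H3122 the levels were 10.5, 11.3 and 8.94 TPM with TRI-611 and 4.81, 4.69 and 4.84 TPM with DMSO (0.95, SE 0.0906, limma adjusted p = 0.000187). This was the largest change of a member in that line, and the groups did not overlap. In NCI-H2228 it measured 19.3, 17.5 and 20.8 TPM with TRI-611 and 12.8, 11.9 and 13.2 TPM with DMSO (0.57, SE 0.0750, limma adjusted p = 0.00224). Its neighbour and paralog SAMD9L was not called in any line, with 0.43 in NCI-H3122 (adjusted p = 0.0696), where 1.21, 1.61 and 1.44 TPM with TRI-611 stood above 0.824, 0.881 and 0.667 TPM with DMSO. SAMD9L passed the filter in NCI-H3122 only through those TRI-611 libraries.

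Of the members tested in both SNU2535 and NCI-H2228, 5 of 39 were called higher in both (12.8%, against 2.99% of 14640 genes): IFIT1, IFIT2, IFIT3, SAMD9 and STAT2. Those called lower in both numbered 3 (7.69%, against 5.61%): IFIT5, PARP9 and DTX3L. With limma, 0 of the 21 members tested in all 3 lines were called lower in all 3 (4.74% of all genes), and 0 were lower in all 3 at an unadjusted p under 0.05. A total of 24 members was called in no line with limma.

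**Figure D5:**
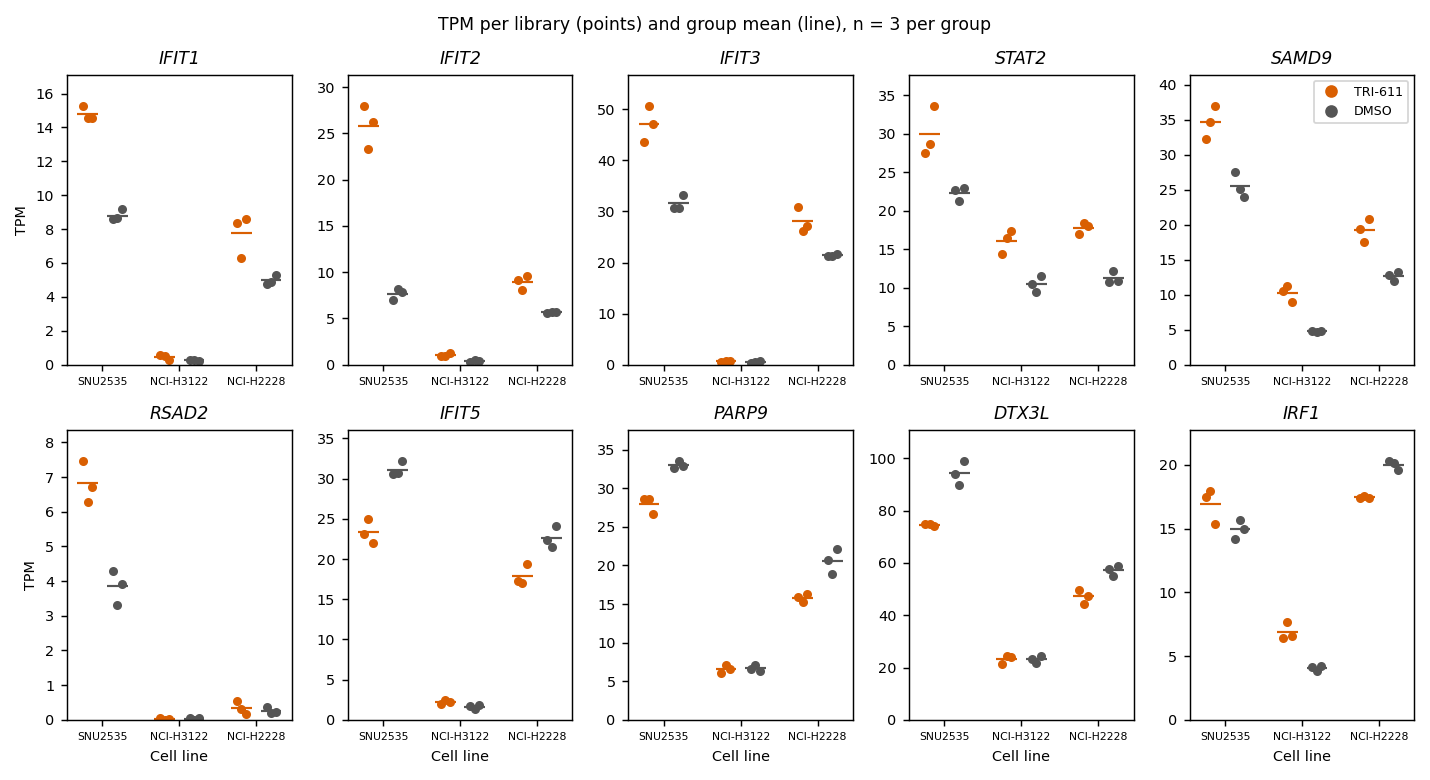
TPM of selected members in each library (points) with the group mean (line), TRI-611 left of DMSO in SNU2535, NCI-H3122 and NCI-H2228. STAT2 and SAMD9 lie higher with TRI-611 in all 3 lines, without overlap, and IFIT5 lies lower in SNU2535 and NCI-H2228.

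PARP9 and DTX3L, whose proteins form an ADP-ribosylating ubiquitin ligase complex, fell together. They lie head to head on chromosome 3 and share 217 exon bases on opposite strands in GENCODE 29, so a small part of their reads could not be told apart without a stated strand setting. DTX3L measured 74.9, 74.7 and 73.9 TPM with TRI-611 and 94.1, 89.8 and 99.0 TPM with DMSO in SNU2535 (log2 difference -0.33, SE 0.0422, limma adjusted p = 0.00087). In NCI-H2228 it measured 49.7, 44.4 and 47.5 TPM with TRI-611 and 57.6, 54.9 and 58.9 TPM with DMSO (-0.27, SE 0.0526, limma adjusted p = 0.0136). PARP9 measured 28.5, 28.6 and 26.6 TPM with TRI-611 and 32.7, 33.6 and 32.8 TPM with DMSO in SNU2535 (-0.23, SE 0.0456, limma adjusted p = 0.00684), and 15.9, 15.3 and 16.3 TPM against 20.7, 18.9 and 22.1 TPM in NCI-H2228 (-0.36, SE 0.0675, limma adjusted p = 0.0121). TRI-611 libraries were below DMSO libraries in each case. In NCI-H3122 the groups overlapped for both genes (0.01 for DTX3L and -0.03 for PARP9, adjusted p = 0.932 and 0.841). PARP14 was called in no line.

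IRF1, a transcription factor that induces many of these genes, was called in opposite directions. In NCI-H3122 the levels were 6.43, 7.67 and 6.61 TPM with TRI-611 and 4.18, 3.84 and 4.20 TPM with DMSO (log2 difference 0.64, SE 0.0900, limma adjusted p = 0.00130). In NCI-H2228 it measured 17.4, 17.6 and 17.4 TPM with TRI-611 and 20.3, 20.1 and 19.6 TPM with DMSO (-0.19, SE 0.0493, limma adjusted p = 0.0463, and 0.0663 with the batch as a block). Neither pair of groups overlapped. The NCI-H2228 call was lost without any 1 of its 6 libraries (adjusted p = 0.0584 without DMSO replicate 3, and 0.0923 to 0.138 without the others), and the adjusted p was 0.0654 when mitochondrially encoded genes were left out of the scaling. In SNU2535 it measured 17.5, 17.9 and 15.4 TPM with TRI-611 and 14.2, 15.7 and 15.0 TPM with DMSO, which overlapped (0.17, adjusted p = 0.129, and 0.23 with adjusted p = 0.0379 after quantile normalization). Other genes overlap 22% of the IRF1 exon bases on the opposite strand. IRF7 and IRF9 were not called in any line in which they were tested.

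Among the remaining effectors of SNU2535, RSAD2 measured 7.47, 6.27 and 6.71 TPM with TRI-611 and 4.30, 3.32 and 3.92 TPM with DMSO (log2 difference 0.69, SE 0.107, limma adjusted p = 0.00238). The groups did not overlap, and its neighbour CMPK2 was not called (-0.05, adjusted p = 0.662). Also higher in SNU2535 were the guanylate-binding protein GBP2 (0.41), DDX60 (0.34), IFI6 (0.26) and IFITM2 (0.12). GBP1 was lower (-0.16). The calls of IFI6, IFITM2 and GBP1 depended on the fit. With all 18 libraries in 1 fit, IFI6 had adjusted p = 0.330 and IFITM2 0.169. IFITM2 and GBP1 had adjusted p = 0.0712 and 0.0567 with the batch as a block. The calls of these genes were lost without any 1 of the 6 libraries (adjusted p of 0.0504 to 0.0879 for IFITM2 and 0.0540 to 0.115 for GBP1), and that of IFI6 when replicate 1 or 2 of the TRI-611 libraries or replicate 1 or 3 of the DMSO libraries was left out (0.0510, 0.0618, 0.0502 and 0.0592). GBP1 was also not called under either other scaling. Without a filter on low values, which adds genes to the adjustment, IFI6, IFITM2 and GBP1 in SNU2535, USP18 in NCI-H3122, and IFIT1, IFIT5, OAS1 and IRF1 in NCI-H2228 were not called (adjusted p of 0.0588 to 0.0888).

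In NCI-H3122 the ubiquitin ligase and antibody receptor TRIM21 measured 8.79, 9.47 and 11.0 TPM with TRI-611 and 15.0, 13.5 and 14.4 TPM with DMSO. It was the member called lower there, without overlap (log2 difference -0.51, SE 0.0849, limma adjusted p = 0.00277). USP18 measured 12.5, 11.5 and 13.3 TPM with TRI-611 and 10.4, 10.3 and 10.7 TPM with DMSO (0.23, limma adjusted p = 0.0314, and 0.0631 with the batch as a block). Its adjusted p was 0.0921 and 0.164 under median-ratio scaling and quantile normalization, and 0.0648 to 0.0959 with any DMSO library or TRI-611 replicate 1 or 3 left out. In NCI-H2228 OAS1 measured 23.5, 19.1 and 20.8 TPM with TRI-611 and 15.6, 16.4 and 17.0 TPM with DMSO (0.35, limma adjusted p = 0.0262, and 0.0540 with the batch as a block). It was not called when replicate 1 or 3 of the TRI-611 libraries or replicate 1 or 2 of the DMSO libraries was left out (adjusted p = 0.0737, 0.0657, 0.0852 and 0.0745).

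Many of the antiviral effectors did not pass the test in any line. ISG15, BST2, IFITM1 and IFITM3, MX1 and MX2, OAS2, OAS3 and OASL, and IFI27, IFI35, IFI44 and IFI44L were among the 24 members not called. For ISG15 the log2 differences were 0.02, 0.05 and -0.08 in SNU2535, NCI-H3122 and NCI-H2228 (adjusted p = 0.852, 0.485 and 0.397). For MX1 they were -0.01 in SNU2535 and -0.05 in NCI-H2228 (adjusted p = 0.946 and 0.586), and in NCI-H3122 MX1 was under 1 TPM in every library.

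The responses of several members differed between lines when that difference was itself tested with limma's interaction contrast. IFIT2 rose more in SNU2535 than in NCI-H2228 (difference of log2 differences 1.06, SE 0.114, adjusted p = 7.65e-05). Of 39 members tested in this pair, 4 were higher (10.3%, against 2.74% of 14640 genes) and 1 lower (2.56%, against 7.83%). The others were IRF1 (0.35), GBP2 (0.34), IFITM2 (0.23) and, in the opposite direction, OAS1 (-0.38, adjusted p = 0.0493, and 0.0706 with the batch as a block). The GBP2 call was lost without any 1 of the 12 libraries (adjusted p of 0.0542 to 0.0857) except SNU2535 TRI-611 replicate 3, NCI-H2228 DMSO replicate 3 and NCI-H2228 TRI-611 replicates 1 and 3. That of IFITM2 was lost without any 1 (0.0521 to 0.0858) except SNU2535 TRI-611 replicate 2, NCI-H2228 DMSO replicate 2 and NCI-H2228 TRI-611 replicate 2. That of OAS1 was lost without any 1 (0.0735 to 0.115) except SNU2535 DMSO replicate 1, NCI-H2228 DMSO replicate 3 and NCI-H2228 TRI-611 replicate 2.

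IRF1 differed in response between all pairs of lines. Its value was 0.82 for NCI-H3122 minus NCI-H2228 (SE 0.0938, adjusted p = 7.64e-05) and -0.47 for SNU2535 minus NCI-H3122 (SE 0.110, adjusted p = 0.00974, or 0.0601 after quantile normalization). IFIT5 did so between NCI-H3122 and both other lines (0.62, SE 0.125, adjusted p = 0.00529 for NCI-H3122 minus NCI-H2228, and -0.70, SE 0.115, adjusted p = 0.00118 for SNU2535 minus NCI-H3122). TRIM21 fell in NCI-H3122 alone among the calls, and its response differed there from that of both other lines (-0.45, adjusted p = 0.00805, for NCI-H3122 minus NCI-H2228, and 0.43, adjusted p = 0.00934, for SNU2535 minus NCI-H3122).

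For SNU2535 minus NCI-H3122, 6 of 21 members were lower (28.6%, against 16.4% of 13788 genes) and 1 higher (4.76%, against 3.71%). SAMD9 (-0.53, adjusted p = 0.00612), SAMD9L (-0.46, adjusted p = 0.0222), USP18 (-0.41) and DTX3L (-0.34) joined IFIT5 and IRF1. SAMD9L was under 1 TPM in every NCI-H3122 DMSO library. It passed the filter in that line only through the TRI-611 libraries, where it was higher, so its call is no independent support. Median-ratio scaling shifted all genes of this pair by 0.12 and left SAMD9L, USP18 and DTX3L uncalled, and quantile normalization left SAMD9, SAMD9L, USP18 and IRF1 uncalled. With a pseudocount of 5, SAMD9 was at -0.26 (adjusted p = 0.0606) and SAMD9L at -0.17 (adjusted p = 0.0848). The share of calls that were higher was 18.5%, and 53.2% and 40.6% under those scalings. Without SNU2535 DMSO replicate 1 or 3, SNU2535 TRI-611 replicate 2 or NCI-H3122 DMSO replicate 3, SAMD9L had adjusted p = 0.0577, 0.0546, 0.0520 and 0.0516. For NCI-H3122 minus NCI-H2228, 5 of 21 were higher (23.8%, against 8.99% of 13878 genes) and 1 lower (4.76%, against 5.34%). SAMD9 (0.39), PARP9 (0.33) and DTX3L (0.28) had adjusted p = 0.0450, 0.0491 and 0.0499 there, and 0.0711, 0.0737 and 0.0546 with the batch as a block. With a pseudocount of 5, SAMD9 was at 0.18 (adjusted p = 0.214), and neither PARP9 nor DTX3L was called under either other scaling (adjusted p = 0.0601 and 0.0580 after median-ratio scaling). The SAMD9 call was lost without any 1 of the 12 libraries (0.0730 to 0.108) except NCI-H3122 TRI-611 replicate 3, NCI-H2228 DMSO replicate 2 and NCI-H2228 TRI-611 replicate 3. That of PARP9 was lost without any 1 (0.0639 to 0.113) except NCI-H3122 DMSO replicate 2, NCI-H3122 TRI-611 replicate 1 and NCI-H2228 DMSO replicate 2. For the other pairs the share of calls that were higher moved to 45.4% and 39.5% with those scalings for SNU2535 minus NCI-H2228, where it was 25.9%, and to 48% and 51.5% for NCI-H3122 minus NCI-H2228, where it was 62.7%.

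Upstream genes of the pathway were counted from named lists. Of 6 receptor genes, 1 was called lower in SNU2535 (18.1% of all genes tested there) and 3 in NCI-H3122 (13.4% of all genes), with no other receptor call. IFNGR1, a receptor chain for interferon gamma, was lower in SNU2535 (log2 difference -0.42) and NCI-H3122 (-0.49), where IFNGR2 (-0.46) and IFNLR1 (-0.55) were lower too. Among kinases and transducers STAT3 was lower in all 3 lines (-0.23, -0.55 and -0.21) and JAK1 was higher in SNU2535 (0.19) and NCI-H3122 (0.27). Of the sensors and adaptors, 5 of 11 were called lower in SNU2535 (18.1% of all genes), 1 of 8 lower and 1 higher in NCI-H3122 (13.4% and 20.6%), and 1 of 11 lower in NCI-H2228 (6.4%), with no other call. The DNA sensor CGAS (-0.91), AIM2 (-0.37) and the kinase TBK1 (-0.21, adjusted p = 0.0191, and 0.0511 with the batch as a block) fell in SNU2535, AIM2 fell in NCI-H2228 (-0.40), and in NCI-H3122 IRF3 fell (-0.33) and the adaptor MAVS rose (0.37).

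Inhibitors of cytokine signalling changed in both directions. SOCS3, which blocks JAK kinases at the receptor, was lower in all 3 lines (log2 difference -1.80 in SNU2535, -0.29 in NCI-H3122 and -0.90 in NCI-H2228), and SOCS1 was lower in NCI-H2228 (-1.13). Over the 8 inhibitor genes, 1 was called higher and 2 lower in SNU2535 (10.7% and 18.1% of all genes), 3 higher and 2 lower in NCI-H3122 (20.6% and 13.4%), and 1 higher and 2 lower in NCI-H2228 (4.8% and 6.4%). The others were PTPN1, lower in SNU2535 (-0.18) and NCI-H3122 (-0.17, adjusted p = 0.0394, and 0.0518 with the batch as a block), PIAS1, higher in SNU2535 (0.26) and NCI-H3122 (0.31), PTPN6, higher in NCI-H3122 (0.50) and NCI-H2228 (0.28), and the member USP18.

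Of further interferon-stimulated genes, 1 of 30 was called higher and 4 lower in SNU2535 (10.7% and 18.1% of all genes), 10 of 25 higher and 3 lower in NCI-H3122 (20.6% and 13.4%), and 2 of 32 higher and 3 lower in NCI-H2228 (4.8% and 6.4%). In SNU2535 both shares lay under those of all genes, and so did the lower share in NCI-H3122. In NCI-H3122 the largest rises were APOL6 (log2 difference 0.62), the giant ubiquitin ligase RNF213 (0.53) and the antiviral zinc finger protein ZC3HAV1 (0.46). The falls there were GBP3 (-0.63), SP110 (-0.41, adjusted p = 0.0205, and 0.0605 with the batch as a block) and NT5C3A (-0.21). In SNU2535 the secreted glycoprotein LGALS3BP rose (0.19) and TRIM26 (-0.45), PARP12 (-0.27) and TRIM14 (-0.23) led the falls. In NCI-H2228 RTP4 (0.45) and TRIM5 (0.37) rose and BATF2 (-0.52), PML (-0.40) and UBE2L6 (-0.13, adjusted p = 0.0451, and 0.0790 with the batch as a block) fell.

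Mitochondrially encoded genes took 8.63% to 9.92% of TPM with TRI-611 and 7.59% to 9.94% with DMSO in SNU2535, with 10.9% to 15% and 9.56% to 12.6% for NCI-H3122, and 10.2% to 11.4% and 8.23% to 10.5% in NCI-H2228. After rescaling without them, the member calls of SNU2535 and NCI-H3122 were kept, and in NCI-H2228 IRF1 was the call lost. Within batches, the median log2 difference of the members tested was 0.11, 0.03 and 0.06 in SNU2535 for batches 1, 2 and 3, with -0.06, 0.19 and 0.08 for NCI-H3122 and 0.01, 0.01 and 0.06 for NCI-H2228. With 1 library per group in a batch, there was no test within batches.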

How the data were processed

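Poly-A RNA of 18 libraries from 3 NSCLC lines was sequenced, with 3 libraries per line and treatment. Per the labels' protocols, RNA was fragmented mechanically and molecular identifiers (UMIs) were added during library preparation. The authors deposited 1 table of TPM values, which sum to 1000000 per library, so read depth and counting error are unknown. Named in the submitters' processing notes are the build GRCh38, DESeq2, featureCounts of Subread 1.5.2, the aligner STAR 2.5.2b and fastp 0.23.1. Annotation, strand setting, UMI handling and how TPM was computed: not given in the sources used here. In GENCODE 29, 16 of the 42 members share exon bases with another gene.

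TPM was used as deposited and transformed to log2(TPM + 1). Genes that reached 1 TPM in 3 or more libraries of a fit were tested with limma 3.58.1 (R 4.3.3; robust empirical Bayes with a trend, two-sided, Benjamini-Hochberg over all genes tested, threshold 0.05). Within-line comparisons used the 6 libraries of the line, levels without TRI-611 the 9 DMSO libraries, and differences in response an interaction contrast on the 12 libraries of a pair of lines. The fits were tested on simulated data. Motifs were searched in RefSeq promoters, and figures were drawn with matplotlib 3.10.9. No library was left out.

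The members and lists were chosen with earlier results of these data known. All 42 members are accounted for. Described with values are the 5 largest called rises and falls per line, the 6 largest called differences per direction and pair of DMSO groups, the 4 largest called response differences per direction and pair, and up to 3 called genes per list, line and direction. Other genes, such as IFNAR1, IFNAR2 and those near a threshold, were named after their values were seen. Not every gene of the lists is reported here.

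Pairing across treatments comes from the labels' batch. Across genes, which are no independent replicates, the deviations of same-numbered libraries from their group means had r of -0.0228, 0.0437 and 0.00966 (SNU2535), -0.0865, -0.029 and 0.0152 (NCI-H3122) and 0.101, 0.00343 and 0.083 (NCI-H2228), in the order of batches 1 to 3. Alternatives were pseudocounts of 0.1 and 5, no filter, a filter at 5 TPM, median-ratio scaling, quantile normalization, the batch as a replicate block, all 18 libraries in 1 fit, each library left out, and, added after seeing the data, rescaling without mitochondrially encoded genes.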

Additional observations from a re-analysis of the deposited data

Results flagged for a closer look

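Of the members whose response to TRI-611 differed between lines, by a limma interaction contrast over all genes, up to 4 with the largest values are listed per direction and pair, as differences of log2(TPM + 1) differences. Between SNU2535 and NCI-H3122 they were TRIM21 (0.43), IFIT5 (-0.70), SAMD9 (-0.53), IRF1 (-0.47) and SAMD9L (-0.46). Between SNU2535 and NCI-H2228 they were IFIT2 (1.06), IRF1 (0.35), GBP2 (0.34), IFITM2 (0.23) and OAS1 (-0.38). Between NCI-H3122 and NCI-H2228 they were IRF1 (0.82), IFIT5 (0.62), SAMD9 (0.39), PARP9 (0.33) and TRIM21 (-0.45). SAMD9L passed the filter in NCI-H3122 only through its TRI-611 libraries. IFIT2, IFIT5 and TRIM21 in each of these pairs, and IRF1 in both pairs with NCI-H2228, kept adjusted p under 0.05 in every alternative in which they were tested.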

How the results depend on the processing

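Followed over the alternatives were all members called within a line and the largest called differences between DMSO groups and in response. None of them turned its direction. Of members not called, ISG20, IRF7 and STAT2 turned between DMSO groups under other scalings, as given beside the results. The median response difference of the members for SNU2535 minus NCI-H3122 was -0.03, and 0.09 under either scaling. Of single members, 963 values kept their direction and their side of the threshold over the alternatives and 130 lost the call. Within lines, the count of members called higher ran from 8 to 10 in SNU2535, 3 to 4 in NCI-H3122 and 4 to 6 in NCI-H2228 when each library was left out, and lower from 3 to 4, 1 to 1 and 2 to 3. Without a filter, 2 members were called lower in NCI-H2228. IFIT1, IFIT2, IFIT3, IFIT5, RSAD2, SAMD9, GBP2, STAT2, DDX60, PARP9 and DTX3L in SNU2535, SAMD9, IRF1, STAT2 and TRIM21 in NCI-H3122, and STAT2, IFIT2, SAMD9, IFIT3, PARP9 and DTX3L in NCI-H2228 kept their calls in all 15 alternatives.

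Between DMSO groups, leaving out a library gave 40 to 41 members higher and 0 lower for SNU2535 against NCI-H3122, 19 to 20 higher and 16 to 19 lower for SNU2535 against NCI-H2228, and 0 higher and 37 to 38 lower for NCI-H3122 against NCI-H2228. Quantile normalization gave 1 lower for the first pair and 2 higher for the last, and median-ratio scaling 1 higher for the last. For responses of SNU2535 minus NCI-H3122, leaving out a library gave 1 higher and 5 to 6 lower; no filter gave 5 higher, median-ratio scaling 3 lower and quantile normalization 2 lower. For SNU2535 minus NCI-H2228, the ranges were 2 to 3 higher and 0 to 1 lower, with 2 higher without a filter and 0 lower with a pseudocount of 0.1, no filter, either scaling or the replicate block. For NCI-H3122 minus NCI-H2228, they were 2 to 4 higher and 1 to 2 lower. A pseudocount of 0.1 or median-ratio scaling gave 3 higher there, no filter, quantile normalization or the replicate block 2 higher, and a pseudocount of 5 or either scaling 2 lower. The fits with fewer samples have less power, and for the others the cause was not tested. The replicate block changed no other call of a member described with values beyond those given beside the results. Unknown depth limits the members under 1 TPM, chiefly in NCI-H3122.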
